A study of Mus musculus with 8 samples.

Results

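Pax7, Myf5, Myf6 and Mdfi are 4 regulators of muscle cell identity among the 273 genes for which 5-hydroxymethylcytosine (5hmC) signal was deposited. They were chosen by gene name, with earlier results of the same Psat1KO against CTRL comparison known, so their differences between the genotypes are given as descriptions. The material was primary mouse myoblasts, the proliferating precursors of muscle fibres, grown from hindlimb muscles in Ham's-F10 with horse serum and bFGF. Psat1KO cells had the genotype Pax7 CRE+/-;Psat1fl/fl and CTRL cells the genotype Pax7 +/+; Psat1fl/fl, so the floxed Psat1 alleles were shared and only Psat1KO cells carried Cre at Pax7. Each genotype had 2 immunoprecipitated libraries, which are analysed here, and 2 input libraries, which are not. The labels give no age and do not say whether the libraries came from separate animals, so the spread between them may be technical. Loss of Psat1 and the presence of the Cre allele cannot be told apart in this design. For Pax7 itself the Cre allele also lies at the measured gene.

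Pax7 is the paired-box transcription factor that marks muscle stem cells and maintains their number, and it acts upstream of Myf5. Myf5 and Myf6 are basic helix-loop-helix factors of the MyoD family, which switch on muscle genes through the short DNA motif called the E-box, and in mice they are neighbours that share a long stretch of regulatory elements. Mdfi, also called I-mfa, binds MyoD family proteins and inhibits their activity. 5hmC is made from methylated cytosine by TET enzymes, which use alpha-ketoglutarate. The enzyme encoded by Psat1 makes phosphoserine for serine synthesis and releases alpha-ketoglutarate in the same reaction.

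The authors marked 220 of the genes UP and 53 DOWN, by a criterion not given in the sources used here. Pax7, Myf5 and Myf6 were marked DOWN and Mdfi was marked UP. In the GRCm38 (mm10) build all 4 genes lie on the minus strand. Pax7 (NM_011039) spans 96472 bases of chromosome 4, at chr4:139737059-139833530. Myf5 (NM_008656) spans 4020 bases at chr10:107482908-107486927, and Myf6 (NM_008657) spans 1876 bases at chr10:107492848-107494723, with 5920 bases between them. Mdfi (NM_001109973) spans 19364 bases at chr17:47815328-47834691.

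The DNA just before the start of these genes is shown because the flank before the start, of which it is the part nearest the gene, had less Mdfi signal in Psat1KO in both sets. RefSeq held a promoter entry for 3 of the 4 genes in GRCm38.p6. The starts in these entries are transcript starts, at position 139832968 for Pax7 and 107486134 for Myf5. The gene bounds of Pax7 and Myf5 reach beyond these starts, so the stretches printed for them lie before the transcript start but inside the gene bounds. The 250 bases before each transcript start are printed in the direction of transcription, with each CG, the dinucleotide at which most cytosine methylation is placed, in capitals. Mdfi has a pair of annotated starts, and the stretch before its inner start lies inside the gene. Which of these starts the measured Mdfi flank ends at was not determined.
Pax7, chr4:139832969-139833218, minus strand: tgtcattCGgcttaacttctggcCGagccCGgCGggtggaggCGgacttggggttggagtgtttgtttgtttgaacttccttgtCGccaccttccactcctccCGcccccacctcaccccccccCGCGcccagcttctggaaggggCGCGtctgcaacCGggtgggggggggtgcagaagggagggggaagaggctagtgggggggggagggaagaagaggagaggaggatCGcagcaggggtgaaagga
Myf5, chr10:107486135-107486384, minus strand: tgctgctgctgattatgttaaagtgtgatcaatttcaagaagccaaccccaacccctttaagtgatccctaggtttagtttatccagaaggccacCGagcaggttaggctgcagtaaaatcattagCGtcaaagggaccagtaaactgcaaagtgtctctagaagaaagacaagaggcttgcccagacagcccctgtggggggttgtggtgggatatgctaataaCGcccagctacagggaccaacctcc
Mdfi, chr17:47834692-47834941, minus strand: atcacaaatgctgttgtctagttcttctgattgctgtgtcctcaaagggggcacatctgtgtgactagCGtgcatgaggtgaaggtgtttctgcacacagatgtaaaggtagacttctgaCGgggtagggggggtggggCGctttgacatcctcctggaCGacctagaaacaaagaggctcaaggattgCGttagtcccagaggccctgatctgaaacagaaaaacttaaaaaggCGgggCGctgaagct
Mdfi, chr17:47833292-47833541, minus strand: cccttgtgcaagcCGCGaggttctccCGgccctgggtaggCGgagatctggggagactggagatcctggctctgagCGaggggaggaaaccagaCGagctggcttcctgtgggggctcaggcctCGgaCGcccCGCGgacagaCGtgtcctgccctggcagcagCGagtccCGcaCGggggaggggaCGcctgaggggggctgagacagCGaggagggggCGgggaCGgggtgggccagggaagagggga
The Pax7 stretch held 13 CG, more than 68.5% of the 32851 mouse promoters of the same length. The Myf5 stretch held 3 CG, a count that 29% of promoters stayed below. The Mdfi stretches held 7 CG at the outer start and 18 at the inner start, above 53.7% and 78.3% of promoters. The median promoter held 6 CG, and 92.1% held at least 1. The E-box letters CANNTG, which read the same on both strands, occurred 3 times before the outer Mdfi start and 0 times in the other stretches, and 66.2% of all promoters held them at least once.

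Each gene carried a coverage signal at a fixed row of points, called bins here, and the mean of these bins served as its level. The values came in 2 tables, set 1 and set 2, each with 1 Psat1KO and 1 CTRL library. Low values tended to be whole multiples of a step, taken as the signal of 1 read. They lay within 1% of a multiple for all low values of the DOWN genes of set 1, and over all genes for 86.1% in the Psat1KO and 87.4% in the CTRL library of set 1 and for 76.8% and 77.3% in those of set 2, the rest being interpolated. The step was 0.0327 in the Psat1KO library and 0.0442 in the CTRL library of set 1, and 0.0143 in both libraries of set 2. Read as RPM-scaled coverage, this gives 30559004 and 22632699 reads in the Psat1KO and CTRL libraries of set 1, and 69794434 and 69765560 in those of set 2. One read was therefore worth more in set 1, and its values are less precise. The tables hold no RNA, so the myoblast label could not be checked against expression. Psat1 was not among the genes analysed here, so its deletion was not checked.

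The stretch of DNA behind the bins was worked out from the values, after they had been seen. In set 2, and for UP genes in set 1, the bins 1, 21 and 81 and the last bin held no interpolated values, which marks a window of 20 intervals before the gene, 60 across it and 20 after it. The DOWN genes of set 1 held no interpolated values in any bin. Their first 51 bins followed the first 20 intervals of set 2 with a median Pearson r of 0.638 over 50 genes, and with r of 0.796 for Pax7, 0.684 for Myf5 and 0.642 for Myf6. At 10, 15, 25, 30, 40 or 50 intervals the median r was at most 0.159. The later bins were matched with a flank of 5000 bases, at a median r of 0.711 over 18 genes under 15000 bases, although Myf5 and Myf6 reached only 0.229 and 0.421. Pax7, Myf5 and Myf6 in set 1 were therefore read every 100 bases from 5 kb before to 5 kb after the start, and in set 2 over the whole gene with 5 kb on each side. The length of the flank in bases was not tested for UP genes such as Mdfi. Which annotated start of Mdfi its window used was not determined either. Neighbouring bins and overlapping windows may hold the same reads, so the intervals below, from exact binomial limits at 95%, cover counting error only and may be too narrow.

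Over the whole window, Mdfi had less 5hmC signal in both Psat1KO libraries than in both CTRL libraries. Pax7 was slightly lower in Psat1KO within each set, and Myf5 and Myf6 were lower in 1 set each. The sets read different stretches of Pax7, Myf5 and Myf6, so their values are compared within a set, and an SD over both sets also holds the gap between the stretches. In these bulk cultures, fewer cells with the mark and less of it per cell cannot be told apart. The order is opposite to the UP mark of Mdfi if UP means higher in Psat1KO and refers to this signal. The sources used here do not give the signal behind the marks. Both Psat1KO libraries lay below both CTRL libraries in 12.1% of the UP genes that passed a filter of a mean signal of 0.005, and in 11.3% of all genes that did. All 4 genes passed that filter, as did 265 of the 273 genes.

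**Figure D1:**
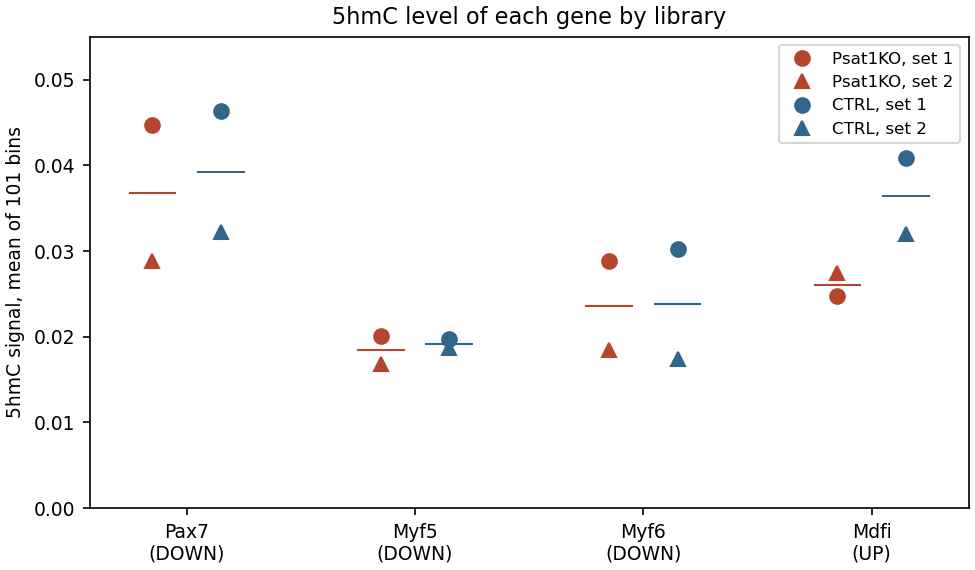
5hmC level (mean signal of all bins) of each gene in each library. Circles are set 1, triangles set 2, and short lines the mean of 2 libraries, with Psat1KO left of CTRL for each gene. The Mdfi levels of Psat1KO, 0.0247 and 0.0274, lie below those of CTRL, 0.0408 and 0.0320. The other 3 genes are to be compared only within a set.

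The Pax7 level was 0.0447 and 0.0288 in the Psat1KO libraries of sets 1 and 2, against 0.0464 and 0.0322 in the CTRL libraries. The mean was 0.0368 ± 0.0112 in Psat1KO and 0.0393 ± 0.010 in CTRL (SD, n = 2 each). Pax7 was among the DOWN genes with most signal, at rank 4 of 53 in Psat1KO and 5 in CTRL in set 1, and at rank 10 in Psat1KO and 6 in CTRL in set 2. Both sets gave a Psat1KO level slightly below that of CTRL. The ratio of Psat1KO to CTRL was 0.964 (0.743 to 1.25) in set 1 and 0.896 (0.736 to 1.09) in set 2. Both intervals include 1.

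The Myf5 level was 0.0201 and 0.0168 in Psat1KO, against 0.0197 and 0.0187 in CTRL. The means were 0.0185 ± 0.0023 in Psat1KO and 0.0192 ± 0.00068 in CTRL (SD, n = 2 each). The ratio was 1.02 (0.684 to 1.53) in set 1 and 0.899 (0.697 to 1.16) in set 2, so the sets differed in direction. Over the same stretch in both sets, from 5 kb before to 5 kb after the start as worked out above, the Myf5 ratio was 1.02 and 0.746. Over the whole window Myf5 had the lowest level of the 4 genes in 3 of 4 libraries, the exception being CTRL of set 2.

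The Myf6 level was 0.0288 and 0.0185 in Psat1KO, against 0.0302 and 0.0175 in CTRL. The means were 0.0236 ± 0.00734 in Psat1KO and 0.0238 ± 0.009 in CTRL (SD, n = 2 each). The ratio was 0.955 (0.690 to 1.33) in set 1 and 1.06 (0.819 to 1.36) in set 2, again with opposite directions. The gap between sets, which were read over different stretches, was much wider than that between genotypes. From 5 kb before to 5 kb after the start in both sets, Myf6 was at 0.0288 and 0.0262 in Psat1KO. In CTRL it was at 0.0302 and 0.0260 there, and the ratios were 0.955 and 1.01.

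The Mdfi level was 0.0247 and 0.0274 in Psat1KO, against 0.0408 and 0.0320 in CTRL. The means were 0.0261 ± 0.00188 in Psat1KO and 0.0364 ± 0.00629 in CTRL (SD, n = 2 each). The ratio was 0.606 (0.441 to 0.828) in set 1 and 0.857 (0.704 to 1.04) in set 2. The interval of set 1 lies below 1 and that of set 2 includes it. Among the 220 UP genes Mdfi ranked 100 by level in Psat1KO and 14 in CTRL in set 1, and 36 in Psat1KO and 16 in CTRL in set 2. Of the 215 UP genes past the filter, 3 had a lower ratio than Mdfi in set 1 and 21 in set 2, where the median log2 ratio of UP genes was -0.05 and 0.04.

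In set 2, where all windows had the same layout in bins, Pax7 and Mdfi stood above Myf5 and Myf6 in both genotypes. The layout differed in bases. Points across the gene were 1598 bases apart for Pax7 and 323 for Mdfi, against 54 for Myf5 and 31 for Myf6. The spacing of Mdfi was taken from its gene bounds. The levels thus average unlike lengths of DNA, and this order is no like comparison of the genes. The neighbours within each pair were close. Pax7 and Mdfi were at 0.0288 and 0.0274 in Psat1KO and at 0.0322 and 0.0320 in CTRL, which is 203 and 193 reads summed over points in Psat1KO and 227 and 225 in CTRL, so that neither order exceeds counting error. Myf6 was above Myf5 in Psat1KO, at 0.0185 and 0.0168, and below it in CTRL, at 0.0175 and 0.0187.

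The whole-table fit with limma on log2(level + 0.005), with Benjamini-Hochberg adjustment, called 0 of 265 genes at an adjusted p of 0.05, which is 0%. At an unadjusted p of that size it had 5 genes, and the smallest adjusted p was 0.996. The Psat1KO minus CTRL log2 difference on that scale was -0.41 ± 0.18 for Mdfi, -0.09 ± 0.25 for Pax7, -0.05 ± 0.17 for Myf5 and 0.0032 ± 0.27 for Myf6 (SE, n = 2 each). None of the 4 genes was called. For Pax7, Myf5 and Myf6 the SE also holds the gap between sets. A pseudocount makes the log2 difference of low signals smaller than the plain fold.

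Within the Pax7 window of set 1, signal was concentrated well before the start and near the end of the window, and little lay at the start itself. The highest bin was 17 in Psat1KO, at 0.425, and 16 in CTRL, at 0.353, which are 3.4 and 3.5 kb before the start. The 10 highest bins held 51.4% of the signal in Psat1KO and 47.2% in CTRL. At the start and at the 2 points before it, the Pax7 signal was 0 in both libraries. A second stretch of Pax7 signal lay 3.6 to 3.9 kb after the start, with a highest value of 0.360 in Psat1KO and 0.177 in CTRL. The bins from 81 on, which hold that stretch, had a mean of 0.0577 in Psat1KO and 0.0379 in CTRL, from 37 and 18 reads summed over points.

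Myf5 had its highest signal of set 1 between 2.4 and 1.5 kb before the start. Bins 21 to 40, which hold this stretch and had 28 of 62 reads in Psat1KO and 27 of 45 in CTRL, averaged 0.0458 in Psat1KO and 0.0596 in CTRL, against at most 0.0187 in Psat1KO and 0.0177 in CTRL over the other stretches. The highest Myf5 bin was 36 in Psat1KO and 27 in CTRL, each worth 7 reads. The Myf6 signal of set 1 was spread more evenly in Psat1KO, where 47.5% of bins held a read, against 29.7% in CTRL. The depth of these libraries differed, as 1 read in CTRL was worth more signal.

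**Figure D2:**
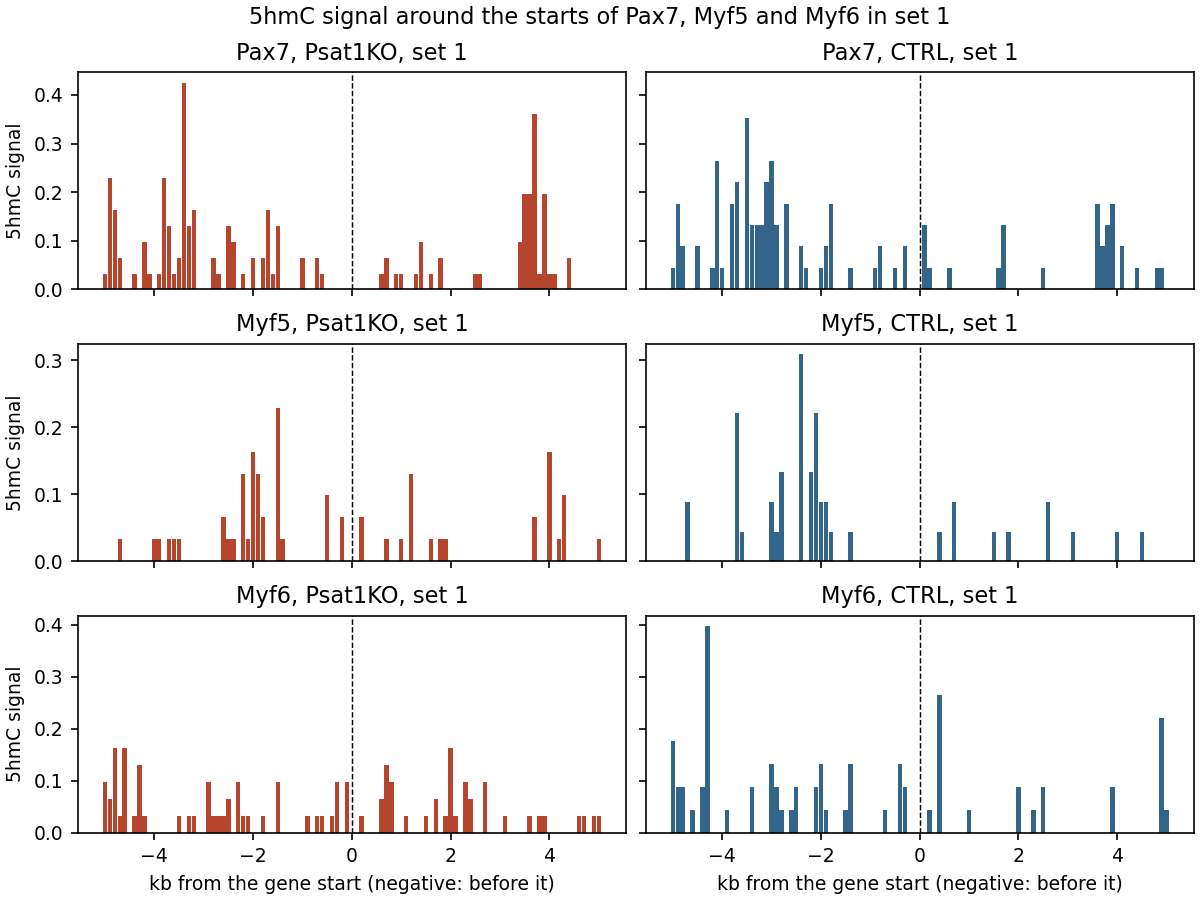
5hmC signal (y axis) against distance from the gene start in kb (x axis, negative before the start) for Pax7, Myf5 and Myf6 in set 1, with Psat1KO in the left column and CTRL in the right. Bars are single bins 100 bases apart and the dashed line is the start. Pax7 shows its highest bars about 3.5 kb before the start, at 0.425 in Psat1KO and 0.353 in CTRL.

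In set 2 the highest Pax7 bin was 58 in both libraries, within the gene, at 0.201 in Psat1KO and 0.334 in CTRL. Across the Pax7 gene consecutive points were 1598 bases apart, so much of it was not read. Myf5 and Myf6 showed little signal over the gene and more in the flanks. Over the Myf6 gene the means of the 3 stretches of bins from 21 to 80 lay between 0.0057 and 0.0075 in Psat1KO and between 0.0029 and 0.0064 in CTRL. In the 20 bins before the Myf6 gene the mean was 0.0430 in Psat1KO and 0.0387 in CTRL. The highest Myf6 bin was the first, at 0.215 in Psat1KO and 0.172 in CTRL, and the highest Myf5 bin was 97, after the gene, at 0.129 in Psat1KO and 0.229 in CTRL.

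Mdfi had its highest bins inside the gene in all 4 libraries. They were bin 41 in the Psat1KO library and 52 in the CTRL library of set 1, and 40 and 50 in those of set 2. In set 2 the Mdfi signal before the start was lower in Psat1KO, with a mean of 0.0187 over bins 1 to 20 against 0.0362 in CTRL. In bins 21 to 40, the first part of the Mdfi gene, it was higher in Psat1KO, at 0.0454 against 0.0286. After the gene, from bin 81 on, it was 0.0138 in Psat1KO and 0.0280 in CTRL. The whole-window ratio of Mdfi in set 2 thus combines stretches with opposite directions. In set 1 bins 21 to 40 were lower in Psat1KO, at 0.0332 against 0.0528 in CTRL, so the higher signal there was seen in set 2 only. Lower signal in Psat1KO was seen in set 1 also before the start, at 0.0260 against 0.0606, and from bin 81 on, at 0.0171 against 0.0250.

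**Figure D3:**
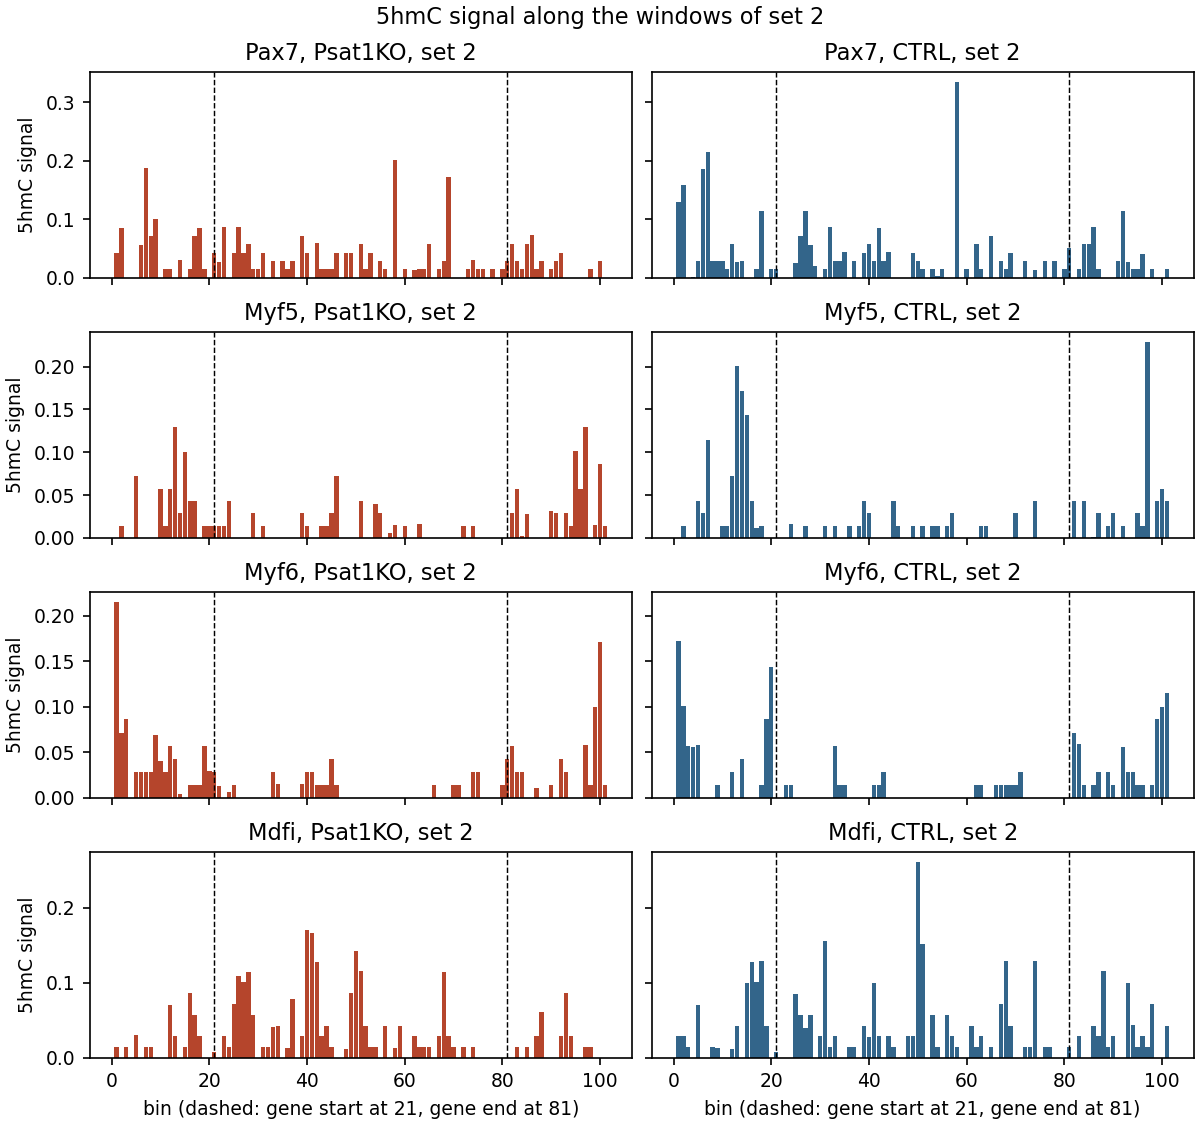
5hmC signal (y axis) by bin (x axis) for the 4 genes in set 2, with Psat1KO in the left column and CTRL in the right. Dashed lines mark the gene start at bin 21 and the gene end at bin 81. Myf5 and Myf6 carry most of their signal outside the gene, whereas the highest Mdfi bins, 40 in Psat1KO and 50 in CTRL, lie inside it.

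Profiles of the 2 genotypes resembled each other more in set 2, the deeper set. Across bins, the Pearson r between Psat1KO and CTRL in set 2 was 0.685 for Pax7, 0.664 for Myf5, 0.679 for Myf6 and 0.546 for Mdfi. In set 1 it was 0.342, 0.228, 0.320 and 0.372 for the same genes. The median r was 0.607 over UP genes and 0.596 over DOWN genes in set 2, so the profiles of the 4 genes were about as alike as those of other genes. These correlations are across neighbouring bins, which are not independent, and libraries of 1 set share their layout.

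Myf5 and Myf6 are so close that their windows share DNA. The transcript start of Myf5 at 107486134 lies 8589 bases from the Myf6 start at 107494723, so the stretch from 5 to 3.6 kb before the Myf5 start is also the last part of the Myf6 window in set 1. At an offset of 86 bins, the Myf5 and Myf6 values were equal to within 1e-06 at 13 of 15 shared points in Psat1KO and at 15 of 15 in CTRL. Of the points with any signal, 5 of 7 were equal in Psat1KO and 3 of 3 in CTRL. The r between the rows was 0.756 in Psat1KO and 1.00 in CTRL at this offset, against 0.358 and 0.038 at 85 bins and 0.091 and 0.039 at 87 bins. The same reads are therefore counted for both genes.

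**Figure D4:**
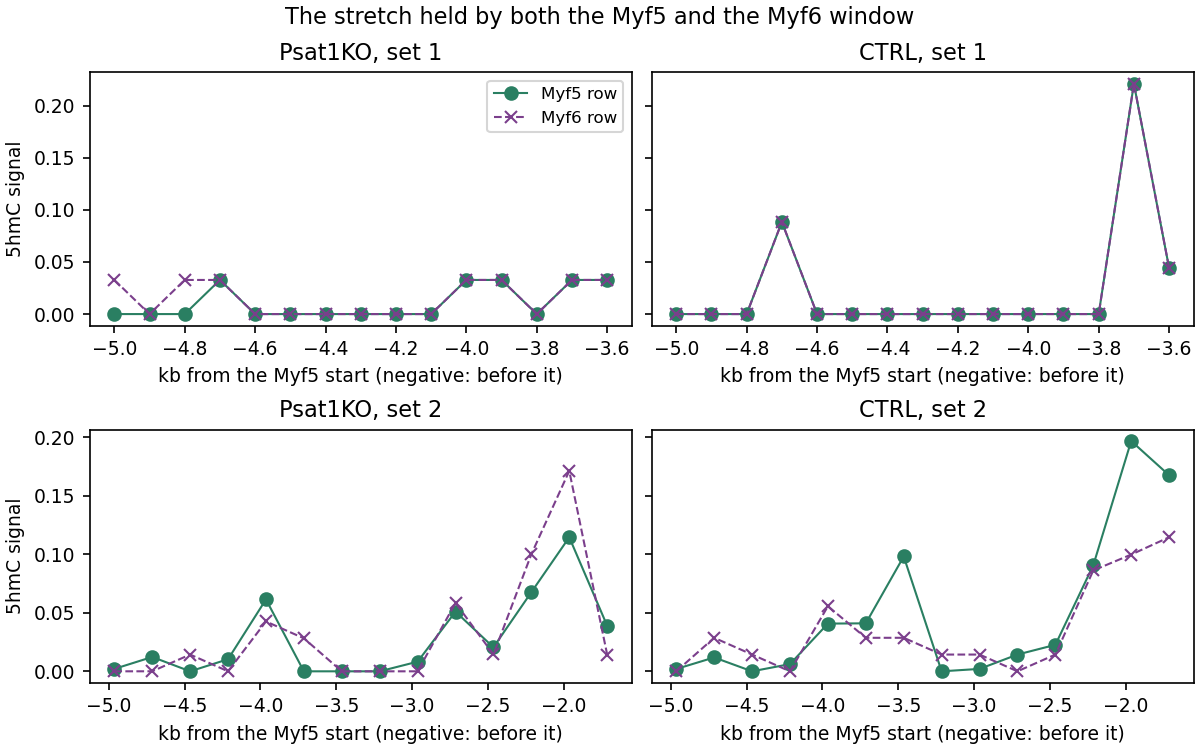
5hmC signal (y axis) in the Myf5 row and in the Myf6 row against distance from the Myf5 start in kb (x axis), over the DNA that both windows hold, with Psat1KO left and CTRL right, set 1 above and set 2 below. In set 1 the CTRL rows have equal values at 15 of 15 points, and the Psat1KO rows at 13 of 15.

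In set 2, where points of the rows do not coincide, the r over 14 places was 0.921 in Psat1KO and 0.894 in CTRL. The shared DNA held 7.87% of the Myf6 signal in the Psat1KO library and 11.6% in the CTRL library of set 1, and 23.8% and 28.4% in those of set 2. At the same places lay 8.06% of the Myf5 signal in Psat1KO and 17.8% in CTRL in set 1, and 22.8% and 36.7% in set 2. Myf5 and Myf6 are thus not independent measurements, most of all in set 2.

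The DNA before the start was measured in both sets for all 4 genes. Within each set its ratios lay further from 1 than those of the whole window for all 4. It holds fewer points than the whole window, so its ratios are less precise. Other genes also moved further there, such as Ogg1 in set 1, with a log2 ratio of 0.09 over the whole window and 2.37 before the start. The share of all genes with ratios further from 1 before the start was not computed. The wider ratios are therefore not shown to set these 4 genes apart. This stretch was chosen after the profiles had been seen. For Mdfi, whose flank length in bases was not tested, the level there was 0.0263 and 0.0181 in Psat1KO, against 0.0598 and 0.0348 in CTRL. The mean was 0.0222 ± 0.00581 in Psat1KO and 0.0473 ± 0.0177 in CTRL (SD, n = 2 each). Both Psat1KO libraries lay below both CTRL libraries, as they did in 12.6% of UP genes. The Mdfi ratio was 0.441 (0.231 to 0.851) in set 1 and 0.521 (0.319 to 0.860) in set 2, and both counting intervals lie below 1. Among 215 UP genes, 13 had a lower ratio than Mdfi in set 1, 6 in set 2 and 0 in both sets. With so few genes lower in either set, few could be lower in both.

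The Myf5 level before the start was 0.0250 and 0.0287 in Psat1KO, against 0.0303 and 0.0422 in CTRL. The means were 0.0268 ± 0.00258 in Psat1KO and 0.0363 ± 0.00841 in CTRL (SD, n = 2 each). Psat1KO was lower within each set, as in 20% of DOWN genes. Across the sets, which read the same flank at different spacing, both Psat1KO libraries lay below both CTRL libraries, which held for 10% of DOWN genes. The ratio was 0.825 (0.509 to 1.34) in set 1 and 0.679 (0.446 to 1.02) in set 2, and both counting intervals include 1.

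The Pax7 level before the start was 0.0558 and 0.0396 in Psat1KO, against 0.0676 and 0.0519 in CTRL. Psat1KO was lower within each set, as in 20% of DOWN genes, but the groups overlapped across sets. The Pax7 ratio was 0.826 (0.602 to 1.14) in set 1 and 0.763 (0.532 to 1.09) in set 2. Of 50 DOWN genes, 5 had a lower ratio than Pax7 in set 1, 6 in set 2 and 0 in both. By the same count, 10 had a lower ratio than Myf5 in set 1, 2 in set 2 and 1 in both. For Myf6 the counts were 4 in set 1, 28 in set 2 and 2 in both. With so few genes lower than Pax7 in either set, a count of 0 in both says little.

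The Myf6 level before the start was 0.0334 and 0.0423 in Psat1KO, against 0.0416 and 0.0368 in CTRL. The ratio was 0.802 (0.531 to 1.21) in set 1 and 1.15 (0.784 to 1.68) in set 2, so the direction differed between sets. Without the flank, over the rest of the window, the ratio of Psat1KO to CTRL was 1.35 in set 1 and 0.963 in set 2 for Pax7, 1.70 and 1.09 for Myf5, 1.3 and 0.986 for Myf6, and 0.678 and 0.956 for Mdfi. For Myf5 the flank and the rest of the window thus ran in opposite directions in both sets. Both counting intervals of its flank include 1, and none was computed for the rest, so this contrast may lie within counting error.

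**Figure D5:**
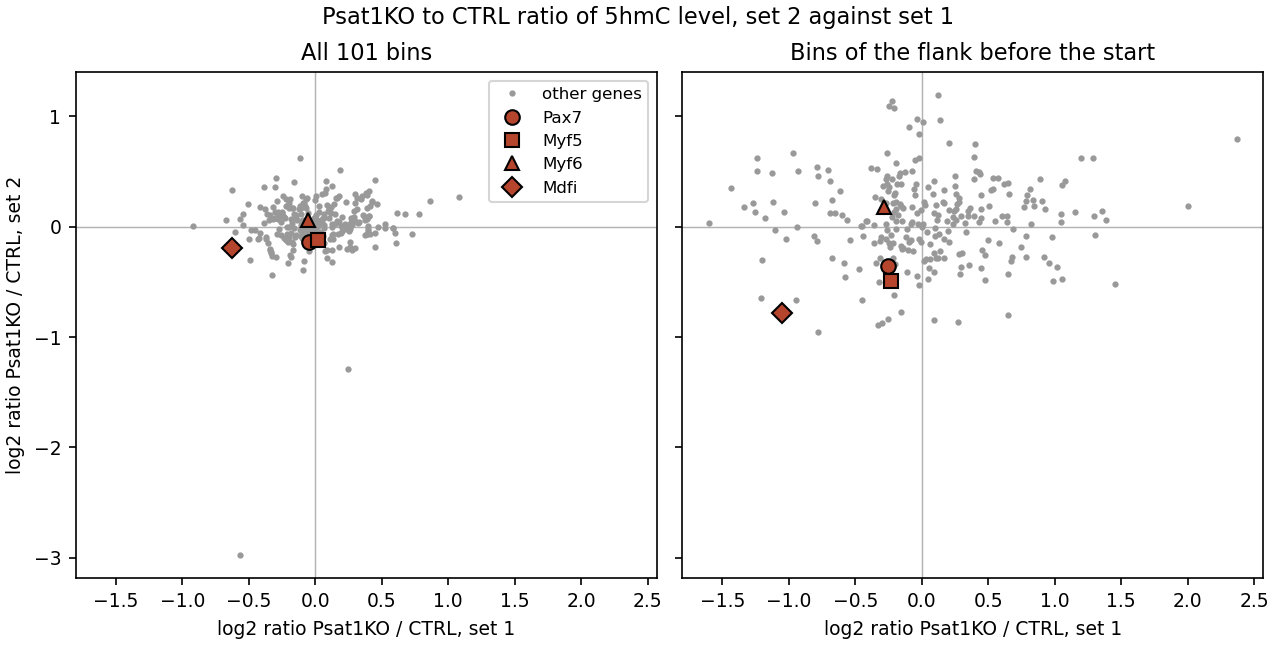
log2 ratio of Psat1KO to CTRL in set 2 (y axis) against set 1 (x axis) for 265 genes, each ratio with a pseudocount of 0.005, over all bins (left) and over the bins before the gene start (right). Coloured symbols are Pax7, Myf5, Myf6 and Mdfi, and grey points the other genes. Before the start, Mdfi lies at -1.05 in set 1 and -0.78 in set 2, and Pax7 and Myf5 are also below 0 in both sets.

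Fitted over all genes on the bins before the start, limma again called 0 of 265 genes (0%), and 7 had an unadjusted p under 0.05. The smallest adjusted p was 0.956. The log2 difference there was -0.92 ± 0.35 for Mdfi, -0.36 ± 0.28 for Myf5, -0.30 ± 0.30 for Pax7 and -0.05 ± 0.26 for Myf6 (SE, n = 2 each). The median over all tested genes was 0.04. The lower signal of Mdfi before its start was therefore of the same direction in both sets but did not pass the test across all genes.

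Of 41 genes of myogenic regulation, 6 were in the tables, the other two besides the 4 genes being Twist1 and Twist2, both marked UP. Twist1 and Twist2 encode basic helix-loop-helix factors that restrain myogenic differentiation. The Twist1 ratio was 1.12 in set 1 and 0.829 in set 2, and that of Twist2 was 0.780 and 0.945. Lower in Psat1KO in both sets were Mdfi, Twist2 and Pax7, where 22.3% of UP genes and 26% of DOWN genes were. Higher in Psat1KO in both sets were 28% of DOWN genes and 0 of the 3 DOWN genes described here. Of 24 genes of the muscle stem cell surface and niche, 4 were in the tables. The ratios in sets 1 and 2 were 1.09 and 1.17 for Cd34, a surface sialomucin, 1.39 and 0.947 for the Notch ligand Jag1, 1.38 and 1.05 for the caveolar protein gene Cav1, and 0.772 and 1.09 for the transmembrane gene Tenm4. None of these genes was called by limma.

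The tables held 3 of 12 genes of contractile fibres (Myh4, Ckm and Atp2a1), all marked DOWN as were Pax7, Myf5 and Myf6. They held 7 of 9 genes of fibroadipogenic progenitors, the connective tissue cells of muscle, all marked UP as was Mdfi, and 2 of 5 genes of endothelium. They held 0 of 3 immune and 0 of 3 Schwann or neural genes. Among all 273 genes 220 were marked UP and 53 DOWN, so an UP mark is the common one. Ratios within these lists ran in both directions. In sets 1 and 2 they were 1.38 and 1.08 for Col1a1 and 0.749 and 0.794 for Dcn. Those of Atp2a1 were 1.39 and 1.17, and those of Ckm 0.741 and 1.16. The part of other cell types in the signal of the 4 genes was not tested.

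By the pair of within-set log2 ratios, the DOWN genes nearest to Pax7 were Palm3, Myf5 and Rab6b, at distances of 0.066, 0.073 and 0.077 on the log2 scale among 49 candidates. Nearest to Myf5 were Tcerg1l, Myh4 and Palm3, and nearest to Myf6 were Stac2, Plekhb1 and Nnt. The UP genes nearest to Mdfi were Foxs1, Tll1 and Piezo2, at 0.139, 0.15 and 0.17 among 214 candidates. Their ratios in sets 1 and 2 were 0.621 and 0.958 for Foxs1, 0.647 and 0.906 for Tll1, and 0.628 and 0.768 for Piezo2. These genes were picked by these ratios, so lower levels in Psat1KO in both sets follow from the choice. Each likeness rests on 2 ratios.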

How the data were processed

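The deposited values are a coverage signal in bins along each gene, made by the authors and given in 2 tables with 1 immunoprecipitated library per genotype each. The number of the table was taken as the replicate number. The tools listed in the submitters' processing notes are MACS 1.4.2, Bowtie 1.3.1 and Trim Galore 0.6.7, for mm10, without roles. How the bins were made and scaled is not given in the sources used here. Per the labels' protocols, DNA was sonicated and 5hmC was immunoprecipitated before library preparation for single-stranded and low-input DNA. No input correction could be seen in the values, so background coverage may remain in them.

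Levels, profiles and ratios were computed with Python 3.11.15, NumPy 2.4.6, SciPy 1.17.1 and pandas 2.3.3, and figures with matplotlib 3.10.9. Psat1KO and CTRL, 2 libraries each, were compared with limma 3.58.1 in R 4.3.3 on log2(level + 0.005) for genes with a mean of at least 0.005 (Benjamini-Hochberg, 0.05). The fit was also run on simulated levels. These had less spread than was fitted for the 4 genes and no gap between sets, so that run cannot vouch for the fit here. The 273 genes were matched to RefSeq. The members and the gene lists were chosen with earlier results of these data known. The text names the 4 members, their 3 nearest genes of the same mark by within-set ratios, and the members of the lists found in the tables; Ogg1 and Hic1 were named after their values were seen. Alternatives covered the pseudocount, the filter, the summary of bins, library scaling, a replicate block and leaving out each library.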

Additional observations from a re-analysis of the deposited data

How the results depend on the processing

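Under the settings other than the bins before the start, 77 values kept their direction and side of the threshold, or for untested ratios moved by less than the SD of the ratios of the 2 sets, 8 moved and 10 reversed. Many of the 77 changed in size, and others could not change. No bin of Pax7, Myf5, Myf6 or Mdfi exceeded 0.425, so limiting bins to 0.5 left their values as they were. The filter and the replicate block cannot alter the log2 difference of a gene. In the main fit the smallest limma adjusted p was 0.996, so staying on the same side of the threshold says little. The count of 77 is therefore no measure of robustness. Leaving out 1 library in turn gave 0 to 1 called genes. The 1 call came without CTRL replicate 1 (Hic1, limma adjusted p 0.0139). The log2 difference then ranged from -0.37 to 0.19 for Pax7, from -0.15 to 0.052 for Myf5, from -0.32 to 0.33 for Myf6 and from -0.56 to -0.25 for Mdfi. Pax7 was positive without CTRL replicate 1 (0.14) or Psat1KO replicate 2 (0.19), and Myf5 without Psat1KO replicate 2 (0.052). Myf6 was negative without CTRL replicate 2 (-0.32) or Psat1KO replicate 1 (-0.26). For these 3 genes, leaving out 1 library sets levels read over different stretches against each other. Their changes of sign therefore also hold the gap between the sets and are no measure of the genotype difference alone.

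With the median of all bins the difference of Mdfi was -0.00029, that of Myf5 0.00021 and that of Myf6 0.47, and the ratios of set 2 were -0.00044 for Pax7, 0.00041 for Myf5, 0.95 for Myf6 and -0.00058 for Mdfi, and 0.0 for Mdfi in set 1. With a pseudocount of 1 the difference of Mdfi was -0.014 and that of Myf6 -0.00024, and the ratios were -0.0047 for Pax7 and -0.0027 for Myf5 in set 2 and -0.023 for Mdfi in set 1. With library median scaling the difference of Myf6 was -0.048, and the ratios were -0.20 for Pax7 in set 2 and -0.020 for Myf5 in set 1. All ratios here are log2. Most bins held no read for Pax7, Myf5, Myf6 and Mdfi in set 1 and for Myf5 and Myf6 in set 2. Their medians there lay below the signal of 1 read. For Myf6 in set 2, 48.5% of bins held a read in Psat1KO and 42.6% in CTRL. A pseudocount of 1 is far above the levels of these genes, which makes each log2 ratio much smaller. The cause of the other changes was not tested.

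The bins before the start were chosen after seeing the data. There the ratios in sets 1 and 2 were -0.25 and -0.35 for Pax7, -0.23 and -0.49 for Myf5, -0.28 and 0.18 for Myf6, and -1.05 and -0.78 for Mdfi, and the difference of Myf6 was -0.051 without and with the replicate block.

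The labels share replicate numbers between genotypes without stating a pairing, and 2 pairs are too few to settle it from the values. Deviations from the group means correlated at 0.368 over all genes, 0.220 over UP and 0.728 over DOWN genes. The DOWN genes were read over different stretches in the sets, and both genotypes share that gap. The value over DOWN genes, and in part that over all genes, therefore cannot bear on pairing. With the replicate block 0 genes were called, 9 had an unadjusted p under 0.05, and the differences were the same, at -0.09 for Pax7, -0.05 for Myf5, 0.0032 for Myf6 and -0.41 for Mdfi. On the bins before the start the block gave 1 call (Ogg1, limma adjusted p 0.0013), and Mdfi had an adjusted p of 0.297.

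With 2 libraries per genotype and, in set 1, most bins at a few reads or none, single bins carry little precision. Input coverage was not analysed here.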
